A study of Mus musculus with 12 samples.

Results

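The 8 genes described here, Afp, H19, Igf2, Gpc3, Dlk1, Prom1, Ly6d and Igf2bp3, are active in the fetal liver, in immature cells or in liver tumours, and they bear on the growth-promoting side of the hormone FGF19. They were chosen by symbol: each Ensembl gene ID of the count table was matched to its mouse symbol, and all 8 were found among 55359 genes. Of the 8, Afp, H19, Gpc3, Prom1 and Ly6d passed the filter on low counts and were tested together with all 15274 genes that passed. Igf2, Dlk1 and Igf2bp3 did not pass and are described mainly by their counts.

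Liver mRNA was measured in 12 mice, all male C57BL/6NTac, in 3 groups of 4. The lean group was fed normal chow and the HFD control group a high-fat diet, and both were injected with a control mRNA. The NM-FGF19 group, on the same high-fat diet, was injected with an mRNA for NM-FGF19, a non-mitogenic form of FGF19. Every group had its mRNA in lipid nanoparticles once a week for 6 weeks, and the livers date from 24 hours after the final dose. The labels call the mice 24 weeks old, and they state 21 weeks on the diets when treatment began but elsewhere 28 weeks of feeding. The columns of the HFD control group alone are named after mouse OX40L, so the control mRNA may not be the same one in both control groups. Each library came from 1 mouse's liver section and is named here by its group and replicate number.

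FGF19, whose mouse counterpart is Fgf15, is a gut hormone that acts on hepatocytes by way of FGFR4 with the co-receptor beta-klotho and represses bile acid synthesis. Lasting exposure of mice to the native hormone makes hepatocytes divide and leads to liver tumours, in which fetal genes such as Afp are expressed again. Afp, H19, Igf2 and Dlk1 are strongly expressed in the fetal liver and silenced soon after birth, and their return in the adult liver is a known feature of regeneration and of hepatocellular carcinoma. The 8 genes are thus a readout of fetal or tumour-like expression in livers exposed to a hormone form designed not to promote growth.

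Library totals ranged from 23743415 to 33257260 counts. With totals scaled by TMM factors of 0.779 to 1.17, 3 counts, the limit used for a gene with no reads, corresponded to 0.0792 to 0.153 CPM (counts scaled to a library of 1000000). The tissue label was checked with hepatocyte markers: all 8 matched were above 0 in every library, and their summed level was 82947 to 116266 CPM in lean, 49614 to 69909 in HFD control and 88005 to 129311 in NM-FGF19 livers. In such bulk samples, fewer cells of a type and less RNA per cell cannot be told apart. On the first 2 principal components lean 3 and HFD control 3 were the libraries most distant from their group mates, and NM-FGF19 4 lay among the HFD control livers on the first. HFD control 2, at 1.12 on the first, lay among the other NM-FGF19 livers, at −9.11 to 6.43. HFD control 3 held 15 genes, Ly6d among them, at least 4-fold above every other library, NM-FGF19 4 held 4, H19 among them, lean 3 held 46 and lean 1 held 1. For many results, though not for all, a fit without 1 or 2 of these libraries is also given. Unless another test is named, p-values come from edgeR's quasi-likelihood F test and are adjusted by the Benjamini-Hochberg method over all 15274 genes. Group levels are mean CPM ± SD (n = 4), each change is a log2 fold change ± SE, and a gene is called where the adjusted p is under 0.05.

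Of the 5 tested members, Afp alone was called in any comparison, and a member not called is not shown to be unchanged. With NM-FGF19, Afp rose above both control groups, by about 3.44-fold over HFD control and 2.63-fold over lean livers, and no change with diet was called. H19 was high in 1 library, NM-FGF19 4, and Ly6d was highest in HFD control 3 and NM-FGF19 4, with groups that overlapped. Gpc3 and Prom1 were low in every library with overlapping groups. Igf2, Dlk1 and Igf2bp3 stayed at 0 to 13 counts a library. In NM-FGF19 against HFD control, 1 of the 5 tested members was called, where 0.432% of all genes were. In NM-FGF19 against lean livers the count was again 1 of 5, against 1.49% of all genes, and in HFD control against lean livers it was 0 of 5, against 8.33%. At an unadjusted p under 0.05 the counts were 2, 2 and 1 in the same order, adding H19 in both treatment comparisons and giving Ly6d in the diet comparison. DESeq2 called Ly6d in the diet comparison, and limma voom called 0 members there.

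**Figure D1:**
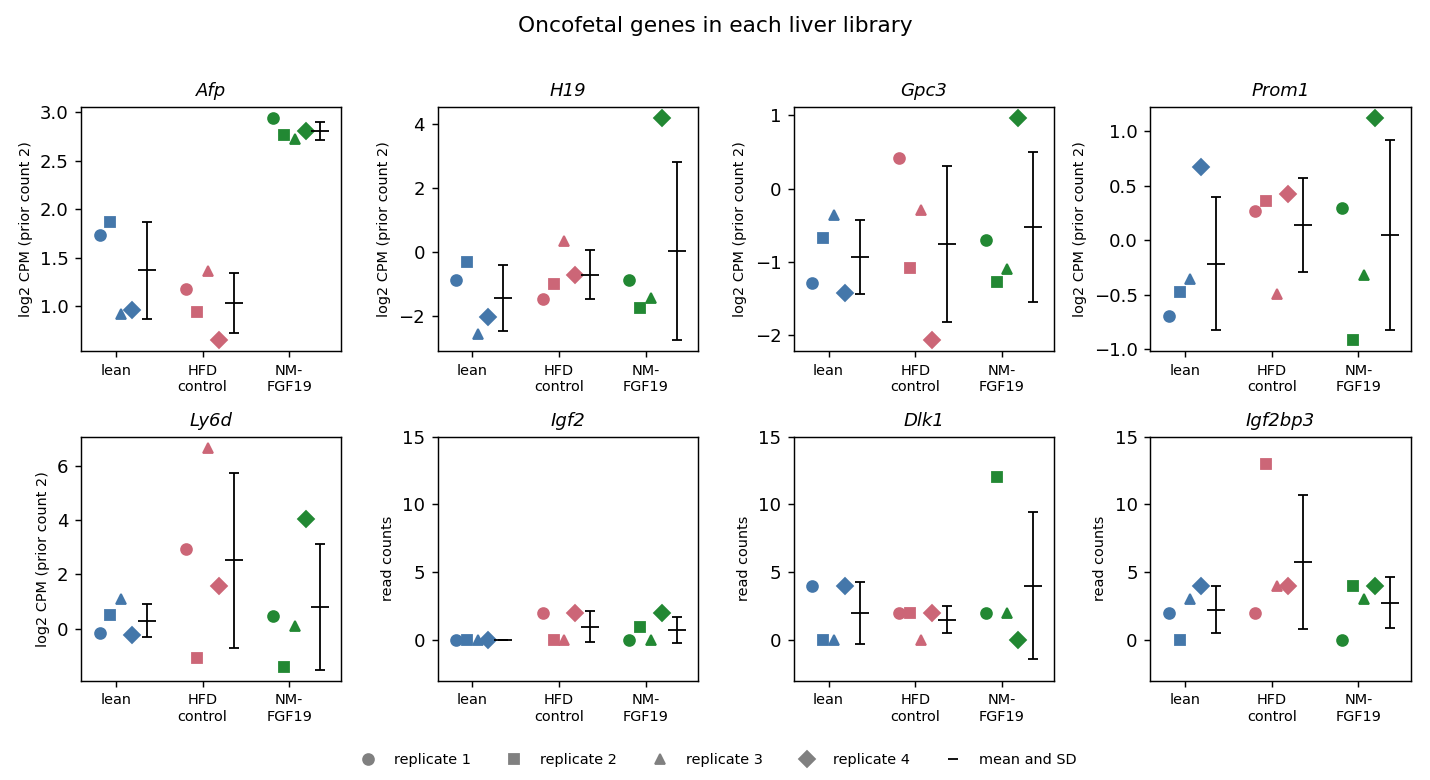
Each point is 1 liver library, with log2 CPM for the 5 tested genes and read counts for Igf2, Dlk1 and Igf2bp3 on the vertical axes, and the bar beside each group is its mean and SD (n = 4). Afp is high in all 4 NM-FGF19 libraries, while H19 stands out in NM-FGF19 4 and Ly6d in HFD control 3.

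**Figure D2:**
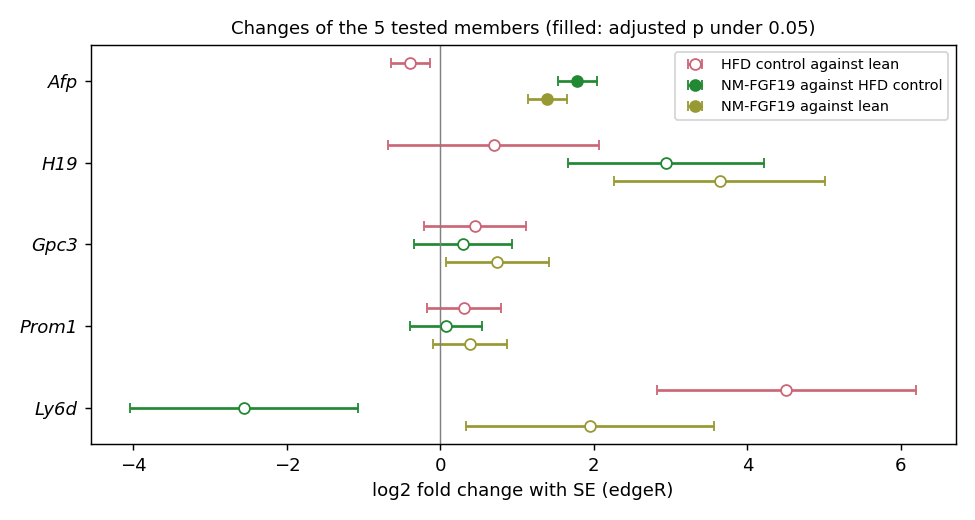
The horizontal axis is the log2 fold change with its SE for the 5 tested genes in the 3 comparisons, and filled points have an adjusted p under 0.05. The 2 filled points are Afp in NM-FGF19 against HFD control (1.78) and against lean livers (1.39).

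Afp (ENSMUSG00000054932) encodes alpha-fetoprotein, the main plasma protein of the fetus, which albumin replaces after birth, and is used as a serum marker of hepatocellular carcinoma. In lean livers it stood at 3.25, 3.57, 1.83 and 1.88 CPM, and in HFD control livers at 2.19, 1.85, 2.51 and 1.51 CPM. In NM-FGF19 livers it stood at 7.60, 6.73, 6.55 and 6.92 CPM. The lowest treated library was thus above the highest library of either control group, while the control groups overlapped. Group means were 2.63 ± 0.909, 2.01 ± 0.432 and 6.95 ± 0.458 CPM. These values rest on 36 to 95 reads in lean, 53 to 94 in HFD control and 175 to 223 in NM-FGF19 libraries, so the gene was low in every liver.

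Afp rose by 1.78 ± 0.25 in NM-FGF19 against HFD control livers (adjusted p = 0.00786), higher in 4 of 4 treated livers. Of all genes tested, 0.282% were called higher in this comparison, and 3.23% had treated values all above the HFD control values. Against lean livers Afp rose by 1.39 ± 0.25 (adjusted p = 0.0196), again with 4 of 4 treated livers above all lean ones, where 1.01% of genes were called higher and 5.46% had treated values all above the lean values. That call was lost without lean 4 (adjusted p = 0.0503), without NM-FGF19 1 (0.0629) and without NM-FGF19 4 (0.0515). HFD control livers differed from lean by −0.39 ± 0.25 (adjusted p = 0.376). The 2 treatment comparisons share the NM-FGF19 libraries, and the diet comparison shares its groups with them.

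Afp lies on mouse chromosome 5 between its relatives Alb, which encodes albumin, and Afm, which encodes afamin, a vitamin E-binding plasma protein. All 3 are liver genes, and the promoters of Afp and Alb are known to bind the hepatocyte factor HNF1. The 250 bases before each start site are shown because the 3 neighbours are compared below. They are on the plus strand of GRCm38.p6, from RefSeq, an older build than that of the counts. Capitals mark the letters GTTAAT or GTTAAC, half-site letters of HNF1, searched on both strands, so that ATTAAC is a match to GTTAAT on the other strand.
Afp, chr5:90490464-90490713: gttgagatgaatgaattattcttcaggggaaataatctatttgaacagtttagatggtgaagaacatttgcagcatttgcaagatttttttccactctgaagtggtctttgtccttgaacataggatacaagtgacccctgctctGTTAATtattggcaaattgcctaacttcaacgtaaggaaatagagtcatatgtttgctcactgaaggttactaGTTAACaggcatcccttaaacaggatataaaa
Alb, chr5:90460620-90460869: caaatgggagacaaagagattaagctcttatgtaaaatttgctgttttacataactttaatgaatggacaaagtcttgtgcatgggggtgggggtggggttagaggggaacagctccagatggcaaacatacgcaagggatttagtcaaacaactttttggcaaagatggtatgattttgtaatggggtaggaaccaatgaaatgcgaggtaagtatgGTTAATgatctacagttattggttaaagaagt
Afm, chr5:90518699-90518948: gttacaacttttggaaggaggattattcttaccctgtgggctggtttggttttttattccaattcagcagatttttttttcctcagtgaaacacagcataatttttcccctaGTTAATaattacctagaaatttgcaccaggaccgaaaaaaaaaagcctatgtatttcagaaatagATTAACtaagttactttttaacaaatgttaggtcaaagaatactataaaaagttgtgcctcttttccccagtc
In Afp the matches begin 105 and 32 bases before the start site, in Alb 32 bases before it, and in Afm 138 and 73 bases before it. Of 32851 mouse promoter windows of this length, 8.75% held a match (6.43% for GTTAAT and 2.56% for GTTAAC) and 0.718% held at least 2. A match is a run of letters and not a measured binding site. Promoter windows were at hand for 6 of the 8 members.

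Alb, the marker gene of adult hepatocytes, stood at 48964, 60228, 63188 and 45760 CPM in lean livers and at 27328, 24363, 39312 and 41960 CPM in HFD control livers. In NM-FGF19 livers it stood at 68247, 92786, 55018 and 84810 CPM. The treated livers were all above the HFD control livers and overlapped the lean ones. Its change was 1.18 ± 0.24 in NM-FGF19 against HFD control (adjusted p = 0.0598), which was not called, and −0.71 ± 0.24 in HFD control against lean livers (adjusted p = 0.0842). Afm stood at 135 to 197 CPM in lean, 110 to 154 in HFD control and 214 to 358 in NM-FGF19 livers, so the treated livers were above all others. It rose by 1.01 ± 0.19 in NM-FGF19 against HFD control (adjusted p = 0.0312), a call kept in 2 of 8 fits that left out 1 library, where the adjusted p reached 0.127.

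Since Alb was also higher in treated livers, Afp was set against it within each library, as Afp counts per 1000000 Alb counts, a ratio of counts that is not corrected for gene length. The summed hepatocyte markers moved the same way, with every treated liver above every HFD control liver and within or above the lean range. Alb is itself 1 of the 8 summed genes, with 84810 of 113528 CPM in NM-FGF19 4, so that sum is no separate measure. Of the 8 markers, 0 were called in NM-FGF19 against HFD control. At an unadjusted p under 0.05 there were 3, and DESeq2 called 3 higher. The ratio was 66.4, 59.4, 29.0 and 41.0 in lean, 80.1, 76.1, 63.8 and 35.9 in HFD control, and 111, 72.5, 119 and 81.6 in NM-FGF19 livers. The treated group overlapped HFD control and lay above lean livers. Relative to Alb, Afp was 1.54-fold higher in NM-FGF19 than in HFD control livers (2-sided exact permutation p = 0.114, adjusted over 3 comparisons 0.171). Against lean livers it was 2.02-fold higher (exact permutation p = 0.0286, the smallest that 4 against 4 libraries can give; adjusted 0.0857). HFD control was 1.31-fold above lean (exact permutation p = 0.286).

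**Figure D3:**
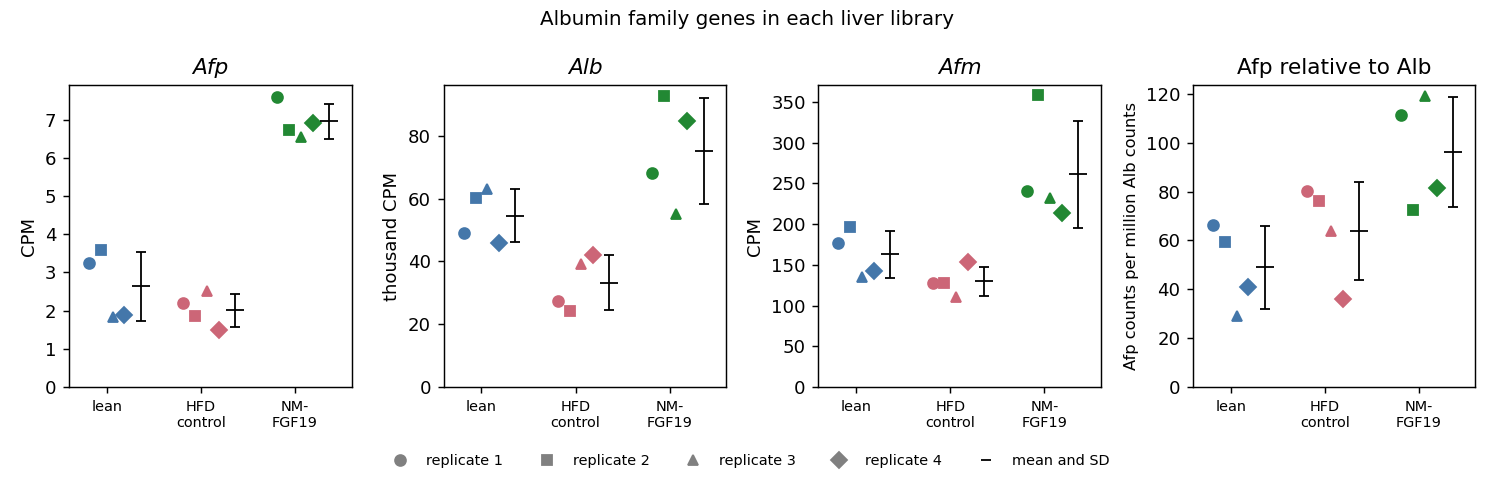
Each point is 1 liver library, with CPM of Afp and Afm, CPM of Alb on its own scale, and Afp counts per 1000000 Alb counts on the vertical axes, and bars are the mean and SD (n = 4). The treated livers are above every control liver for Afp and Afm, above HFD control livers alone for Alb, and overlap HFD control livers for the ratio.

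Of the genes known to switch Afp and H19 on or off, the 2 main repressors of Afp in the adult mouse liver had overlapping levels in the 3 groups. Zhx2, the zinc-finger and homeobox gene that silences Afp and H19 after birth, averaged 23.5 ± 3.53, 25.6 ± 4.70 and 23.7 ± 2.43 CPM across lean, HFD control and NM-FGF19 livers, with a change of −0.11 ± 0.15 under NM-FGF19 against HFD control (adjusted p = 0.909). Zbtb20, which also represses Afp, averaged 173 ± 30.0, 136 ± 55.2 and 158 ± 74.0 CPM, with a change of 0.21 ± 0.35 (adjusted p = 0.932). Of 17 such regulators, 0 were called in either treatment comparison, with 1 and 2 at an unadjusted p under 0.05. DESeq2 called 0 of them against HFD control and 2 against lean livers, and limma voom called 0 in both. With diet 1 of 17 fell and 0 rose, where 3.29% of all genes fell and 5.04% rose: Foxa3, a forkhead factor of the hepatocyte network, changed by −0.97 ± 0.26 (adjusted p = 0.0396), a call kept in 2 of 8 fits that left out 1 library. Without lean 3 and HFD control 3, 0 of the 17 were called with diet. In the list of 6 genes that joins the albumin family with other genes repressed by Zhx2, Lpl, whose lipoprotein lipase is itself repressed by Zhx2 in the adult liver, rose with diet by 1.76 ± 0.27 (adjusted p = 0.00511). Lpl changed by −1.02 ± 0.27 under NM-FGF19 against HFD control (adjusted p = 0.166), which was not called. The part of other cell types in the Lpl level was not tested.

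The genes whose log2 CPM followed Afp most closely over the 12 libraries were Fgfr2, a receptor for fibroblast growth factors (Pearson r = 0.922), Serinc5, a membrane protein gene (0.911), and Ces2g, a carboxylesterase gene (0.909). These r values describe 12 libraries that share 3 groups. Fgfr2 stood at 47.4 to 54.5 CPM in NM-FGF19 livers, against 18.8 to 39.7 in lean and 25.7 to 31.3 in HFD control livers. Ces2g stood at 71.9 to 84.8 CPM in treated livers, against 37.1 to 54.4 and 43.8 to 48.5. Serinc5 stood at 61.8 to 72.8 CPM, against 44.9 to 59.3 and 49.1 to 55.2. In all 3 the treated libraries lay above both control groups, as for Afp. They were picked for following Afp in these same libraries, so the shared pattern is no separate result.

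H19 (ENSMUSG00000000031) is an imprinted RNA that codes for no protein, made from the maternal copy beside Igf2. It was abundant in 1 library only. It stood at 0.479, 0.743, 0.102 and 0.175 CPM in lean livers and at 0.290, 0.434, 1.20 and 0.540 CPM in HFD control livers. In NM-FGF19 livers it stood at 0.477, 0.231, 0.301 and 18.1 CPM. NM-FGF19 4 held 548 of the 577 reads of its group and was 15.0-fold above the next library, HFD control 3, while the other treated libraries lay within the range of the controls. The change was 2.94 ± 1.28 against HFD control (adjusted p = 0.533) and 3.64 ± 1.37 against lean livers (adjusted p = 0.206), and neither was called. Without NM-FGF19 4 the changes were −0.86 and −0.16, of the opposite sign. HFD control against lean livers gave 0.70 ± 1.38 (adjusted p = 0.803).

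H19 also carries the precursor of the microRNA miR-675, which is cut from its first exon and restrains growth in the mouse placenta. Its mature forms are shown because H19 is the member with a microRNA product. They lie on the minus strand of chromosome 7 in GRCm38.p6, at chr7:142577112-142577133 for the 5p form and chr7:142577078-142577099 for the 3p form, with the seed, bases 2 to 8, in capitals.
mmu-miR-675-5p: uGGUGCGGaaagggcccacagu
mmu-miR-675-3p: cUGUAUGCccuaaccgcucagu
The seeds differ. These mRNA libraries do not measure mature microRNAs, so the H19 counts say how much host RNA was present and not how much miR-675 was made.

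The genes closest to H19 over the 12 libraries were Lax1 (r = 0.903), a lymphocyte adaptor gene, Podn (0.900), a matrix proteoglycan gene, and Mmp11 (0.881), a matrix metalloproteinase gene of stromal cells. Podn stood at 4.94 to 7.89, 5.57 to 10.1 and 5.88 to 15.8 CPM across lean, HFD control and NM-FGF19 livers. Mmp11 stood at 0.306 to 0.882, 0.608 to 0.924 and 0.423 to 2.01 CPM. NM-FGF19 4 also had the highest summed level of 10 stellate cell and fibroblast markers in its group, 941 CPM against 312 to 648 in the other treated livers, with 0 of the 10 at 0. HFD control 3, the library next highest for H19, had the highest sum of all at 1103 CPM, against 440 to 561 in the other HFD control livers. Lean livers summed to 198 to 262 CPM. The matrix genes Col1a1, Col3a1 and Dcn gave 138, 267 and 257 CPM of the sum in NM-FGF19 4. In HFD control 3 they gave 220, 363 and 298 CPM, so the sum is no count of cells. The part of stellate cells and fibroblasts in the H19 level was not tested.

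Igf2 (ENSMUSG00000048583), the fetal growth factor gene that is expressed from the paternal copy of the same locus, was near absent from the counts. It had 0 reads in all 4 lean livers, which allows up to 0.153 CPM in lean 3, the lean library with the highest limit. It had 2, 0, 0 and 2 reads in HFD control and 0, 1, 0 and 2 reads in NM-FGF19 livers. NM-FGF19 4, the library rich in H19, held 2 of them, so the 2 neighbours were not high together. Without the filter on low counts Igf2 was not called in any comparison, with adjusted p-values of 0.465 in the diet comparison, 1 against HFD control and 0.591 against lean livers. In the older build GRCm38, exons of an antisense gene, Igf2os, and of a same-strand gene, Gm49394, overlap Igf2. Neither the strand mode nor the counting of reads shared by overlapping genes is known, so Igf2 reads may have been missed. Other members overlap genes too: H19 overlaps Mir675 on the same strand and Gm27483 and Gm27786 on the opposite one. Igf2bp3 overlaps Malsu1 and Prom1 overlaps Gm16401, both on the opposite strand.

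Igf2bp3 (ENSMUSG00000029814) encodes an RNA-binding protein of fetal tissues and carcinomas that binds, among others, the IGF2 message. It had 2, 0, 3 and 4 reads in lean, 2, 13, 4 and 4 in HFD control and 0, 4, 3 and 4 in NM-FGF19 livers. The highest library, HFD control 2, stood at 0.377 CPM, and the groups overlapped. Without the filter, the adjusted p-values were 0.784, 0.915 and 1 in the diet comparison, against HFD control and against lean livers.

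Of 16 tested genes of the insulin-like growth factor pathway, which carries the growth signal of IGF2, 0 were called in all 3 comparisons, with 3 at an unadjusted p under 0.05 for diet, 0 for NM-FGF19 against HFD control and 4 against lean livers. DESeq2 called 1 higher and 1 lower with diet, 0 in the second comparison and 1 each way in the third, and limma voom called 0 in all 3. The median change was −0.06 in NM-FGF19 against HFD control, where the median of all genes was 0.00, and −0.26 to 0.11 when 1 library was left out. Igf1, the hormone gene of the adult liver, averaged 660 ± 158, 428 ± 106 and 411 ± 24.0 CPM across lean, HFD control and NM-FGF19 livers, with a change of −0.06 ± 0.20 under NM-FGF19 against HFD control (adjusted p = 0.977).

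Dlk1 (ENSMUSG00000040856), also called Pref-1, encodes a Notch-like membrane protein that marks hepatoblasts, the precursors of hepatocytes. It was near the limit of detection, with 4, 0, 0 and 4 reads in lean, 2, 2, 0 and 2 in HFD control and 2, 12, 2 and 0 in NM-FGF19 livers. NM-FGF19 2 was the highest library at 0.462 CPM, and the other treated livers lay within the control range. Without the filter the adjusted p-values were 0.795 for diet, 0.736 against HFD control and 0.855 against lean livers.

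Dlk1 is expressed from the paternal copy of an imprinted cluster whose maternal copy gives the RNAs Meg3, Rian and Mirg. These 3 were measured more often than Dlk1. Rian, the host of many small nucleolar RNAs, stood at 1.44, 0.743, 0.306 and 0.830 CPM in lean, 0.449, 0.405, 0.400 and 0.511 in HFD control, and 1.50, 3.23, 4.95 and 1.12 in NM-FGF19 livers. The treated libraries were all above HFD control and overlapped lean livers. Rian rose by 2.60 ± 0.51 in NM-FGF19 against HFD control (adjusted p = 0.0473), a call kept in 1 of 8 fits that left out 1 library, where the adjusted p reached 0.165.

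Meg3 stood at 3.39, 2.51, 0.917 and 2.45 CPM in lean, 1.24, 1.39, 1.09 and 1.48 in HFD control and 3.10, 6.12, 6.35 and 1.98 in NM-FGF19 livers. Here too all treated libraries were above HFD control, but the change of 1.75 ± 0.41 was not called (adjusted p = 0.105). Mirg, which hosts many microRNAs, had 6, 11, 21 and 11 reads in lean, 4, 0, 0 and 2 in HFD control and 2, 3, 16 and 4 in NM-FGF19 livers. It fell with diet (adjusted p = 0.0300), a call kept in 2 of 8 fits that left out 1 library. The 2 treated libraries with the most Meg3 and Rian, NM-FGF19 2 and 3, are not the one with the most H19.

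**Figure D4:**
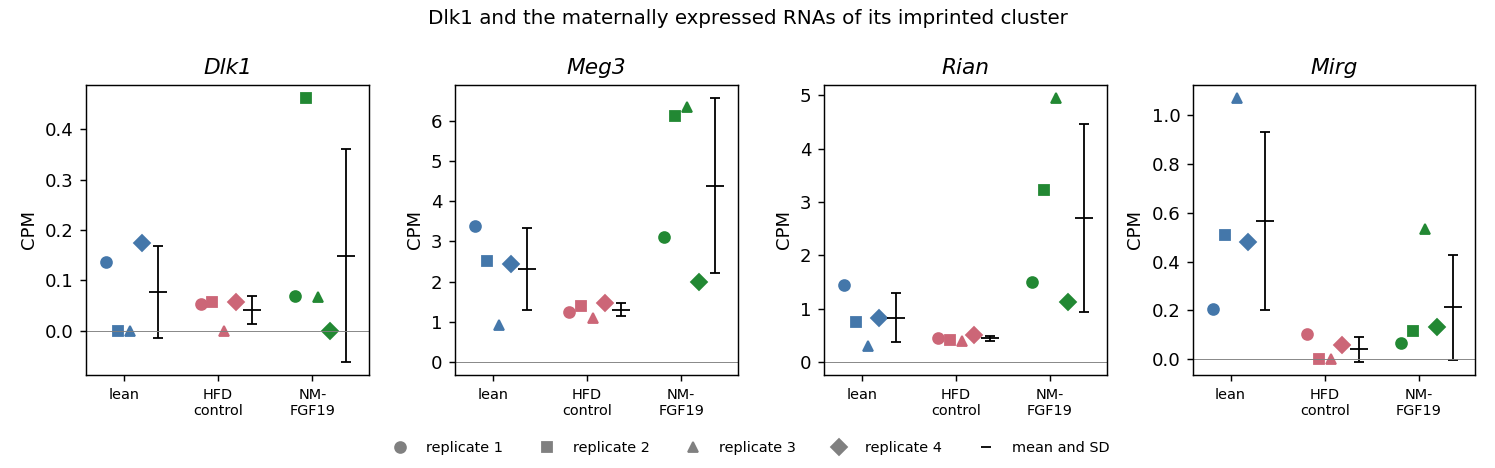
Each point is 1 liver library, with CPM of Dlk1, Meg3, Rian and Mirg on the vertical axes, and bars are the mean and SD (n = 4). Meg3 and Rian are above all HFD control libraries in the 4 treated ones, while Dlk1 is at or near 0 in every library.

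Of 15 tested imprinted genes that act on growth, 2 rose and 1 fell with diet, 1 rose in NM-FGF19 against HFD control (Rian) and 2 rose against lean livers. Of all genes, 5.04% rose and 3.29% fell with diet, and 0.282% and 1.01% rose in the 2 treatment comparisons. Of the 15, DESeq2 called 3 higher and 1 lower with diet, 2 higher against HFD control and 5 higher against lean livers. The median changes were 0.12, 0.11 and 0.49, beside −0.02, 0.00 and −0.01 for all genes. Leaving out 1 library at a time gave medians of 0.0074 to 0.28, −0.058 to 0.22 and 0.19 to 0.56, with the value below 0 in the fit without NM-FGF19 4. Mest, a hydrolase-like gene linked to growth and fat storage, rose with diet by 2.30 ± 0.34 (adjusted p = 0.00387), from 1.40 ± 0.145 to 6.88 ± 2.30 CPM. In NM-FGF19 livers it was 6.17 ± 2.89 CPM, higher than lean by 2.14 (adjusted p = 0.0122). Plagl1, a zinc-finger regulator of other imprinted genes, rose with diet by 1.45 ± 0.32 (adjusted p = 0.0180), and stood at 2.95 ± 0.697 CPM in HFD control and 2.94 ± 1.08 in NM-FGF19 livers, against 1.09 ± 0.303 in lean. Its rise against lean livers under NM-FGF19 (1.44, adjusted p = 0.0457) was kept in 1 of 8 fits that left out 1 library.

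Gpc3 (ENSMUSG00000055653) encodes glypican-3, a heparan sulphate proteoglycan of the cell surface that is absent from normal adult hepatocytes and used as a tissue marker of hepatocellular carcinoma. It had 10, 12, 14 and 7 reads in lean, 48, 14, 28 and 6 in HFD control and 16, 9, 12 and 57 in NM-FGF19 livers. NM-FGF19 4, at 1.88 CPM, and HFD control 1, at 1.27 CPM, were the highest, and the groups overlapped. Means were 0.480 ± 0.191, 0.647 ± 0.476 and 0.793 ± 0.729 CPM. The changes were 0.45 ± 0.67 with diet (adjusted p = 0.730), 0.29 ± 0.64 in NM-FGF19 against HFD control (adjusted p = 0.952) and 0.74 ± 0.67 against lean livers (adjusted p = 0.625). Without NM-FGF19 4 and HFD control 3 the latter 2 were −0.51 and −0.13.

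The genes closest to Gpc3 over the 12 libraries were Snx12, a sorting nexin gene (r = 0.863), Smad6, an inhibitor of BMP signalling (0.857), and Slpi, a protease inhibitor of epithelia (0.847). Slpi stood at 1.51 to 9.27, 1.05 to 4.46 and 1.27 to 15.5 CPM across lean, HFD control and NM-FGF19 livers. Heparan sulphate is the sugar that FGF hormones and growth factors bind. Among its enzymes and other glypicans, 2 of 8 tested rose with diet and 0 fell. Of all genes, 5.04% rose and 3.29% fell with diet. The median change of the 8 was 0.61. Sulf2, a sulphatase that trims heparan sulphate and is raised in human liver cancer, rose by 2.07 ± 0.32 (adjusted p = 0.00516), from 8.66 ± 3.72 to 36.6 ± 11.1 CPM. Gpc1 rose by 1.57 ± 0.35 (adjusted p = 0.0206), from 12.3 ± 3.96 to 36.5 ± 15.2 CPM, a call kept in 5 of 8 fits that left out 1 library. The summed stellate cell and fibroblast markers given above for H19 were also higher in every HFD control liver than in any lean one, and their part in these changes was not tested. In NM-FGF19 livers Sulf2 averaged 19.1 ± 6.13 and Gpc1 25.0 ± 8.83 CPM. In NM-FGF19 against HFD control 0 of the 8 were called, with 2 at an unadjusted p under 0.05 and 0 called by DESeq2 or limma voom. Against lean livers 0 were called, with 4 at an unadjusted p under 0.05, 3 called higher by DESeq2 and 0 by limma voom.

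Prom1 (ENSMUSG00000029086) encodes prominin-1, or CD133, a membrane protein of liver progenitor cells, bile duct cells and tumour-initiating cells. It stood at 0.548, 0.650, 0.713 and 1.53 CPM in lean, 1.13, 1.22, 0.640 and 1.28 in HFD control and 1.16, 0.462, 0.735 and 2.11 in NM-FGF19 livers. The groups overlapped, and the highest library was again NM-FGF19 4. Means were 0.860 ± 0.451, 1.07 ± 0.291 and 1.12 ± 0.721 CPM, on 12 to 64 reads a library. Changes were 0.31 ± 0.48 with diet (adjusted p = 0.740), 0.07 ± 0.47 in NM-FGF19 against HFD control (adjusted p = 0.988) and 0.38 ± 0.48 against lean livers (adjusted p = 0.753). The value against HFD control had the opposite sign when library totals alone set the scale (−0.034).

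Among the 3 genes closest to Prom1 were Fam131a (r = 0.880) and Syt7 (0.800), a calcium sensor of membrane fusion. Summed levels of 10 bile duct cell markers were 85.9 to 305 CPM in lean, 52.1 to 147 in HFD control and 57.2 to 151 in NM-FGF19 livers, with 0 to 2 of them at 0 in a library. NM-FGF19 4 was the highest treated library there too, while lean 3, the highest of all at 305 CPM, had 0.713 CPM of Prom1. The part of bile duct cells in the Prom1 level was not tested.

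Ly6d (ENSMUSG00000034634) encodes a small lipid-anchored surface protein of early B cells and of squamous epithelia, and the name belongs to a family that also marks stem cells. Around the median library it ran from −1.89 to 6.19 on the log2 scale, beside −1.62 to 5.11 for H19. Afp, Gpc3 and Prom1 varied less than these 2. Ly6d stood at 0.821, 1.35, 2.04 and 0.786 CPM in lean livers, 7.57, 0.405, 101 and 2.90 in HFD control and 1.30, 0.308, 1.00 and 16.3 in NM-FGF19 livers. HFD control 3 held 3788 of the 4191 reads of its group and NM-FGF19 4 held 495 of the 571 of its own. HFD control 3 was 6.20-fold above NM-FGF19 4, and 3 of 4 HFD control livers were above all lean ones. The lowest library of each high-fat group lay below every lean liver.

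The change of Ly6d with diet was 4.51 ± 1.69 (adjusted p = 0.130), and 1.56 without HFD control 3 (adjusted p = 0.550). DESeq2 called this change (adjusted p = 0.0143). In NM-FGF19 against HFD control the change was −2.56 ± 1.49 (adjusted p = 0.692), and 0.38 without HFD control 3. Against lean livers it was 1.95 ± 1.62 (adjusted p = 0.594), and −0.48 without NM-FGF19 4. The summed level of 9 B cell markers was 1.94 to 8.83 CPM in lean, 2.93 to 5.81 in HFD control and 4.11 to 9.46 in NM-FGF19 livers. HFD control 3 was at 3.81 CPM in that sum, and NM-FGF19 4 was the highest of all at 9.46. Igll1, a gene of early B cells, was at 0 in all 12 libraries.

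The genes closest to Ly6d over the 12 libraries were Myo9b, a myosin gene (r = 0.947), Fkbp1a, which encodes the FK506-binding protein (0.934), and Unc119, a carrier of lipid-anchored proteins (0.934). Unc119 stood at 4.15 to 5.76, 4.95 to 18.5 and 5.32 to 11.1 CPM across lean, HFD control and NM-FGF19 livers. With HFD control 3 as the highest library, Sprr1a, a squamous epithelial gene, stood at 17.5 CPM against at most 0.528 elsewhere, and Cidea, a lipid droplet gene, at 58.1 against at most 13.4 CPM. These 2 were picked after their values were seen, among the 15 genes at least 4-fold above all other libraries in HFD control 3.

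Of the other genes of the Ly6 family, 2 of 5 tested rose with diet and 0 fell. Of all genes, 5.04% rose and 3.29% fell with diet. The median change of the 5 was 0.40. In fits that left out 1 library that median was 0.41 to 1.76, and in 6 of the 8 fits 6 genes of the family were tested instead of 5. Ly6a, or Sca-1, a stem cell and endothelial marker, rose by 2.56 ± 0.37 (adjusted p = 0.00404), from 7.24 ± 2.31 to 42.7 ± 15.9 CPM. Ly6c2, a monocyte marker, rose by 2.51 ± 0.48 (adjusted p = 0.0108), from 1.02 ± 0.480 to 5.85 ± 4.17 CPM. Ly6c2 has a near-identical neighbour, Ly6c1, and Ly6a has close relatives, so their counts are uncertain. Summed levels of 7 endothelial markers were 385 to 433 CPM in lean, 457 to 510 in HFD control and 435 to 522 in NM-FGF19 livers. Those of 7 macrophage markers were 337 to 432, 142 to 356 and 124 to 260 CPM, with 0 of them at 0 in any library. Of these 7, 2 rose and 3 fell with diet. Among them, picked after their values were seen, Gpnmb, a gene of lipid-laden macrophages, stood at 0.0874 to 0.557 CPM in lean and 22.4 to 90.2 in HFD control livers. Timd4, a gene of resident Kupffer cells, stood at 12.5 to 17.1 and 0.227 to 0.373 CPM, and Clec4f, another, at 148 to 185 and 15.3 to 48.7 CPM. The part of these cells in the Ly6a and Ly6c2 levels was not tested. In NM-FGF19 livers Ly6a was 34.8 ± 17.2 CPM, higher than lean by 2.27 (adjusted p = 0.0153). In NM-FGF19 against HFD control 0 of 5 were called, with 1 at an unadjusted p under 0.05 and 0 by DESeq2 or limma voom.

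**Figure D5:**
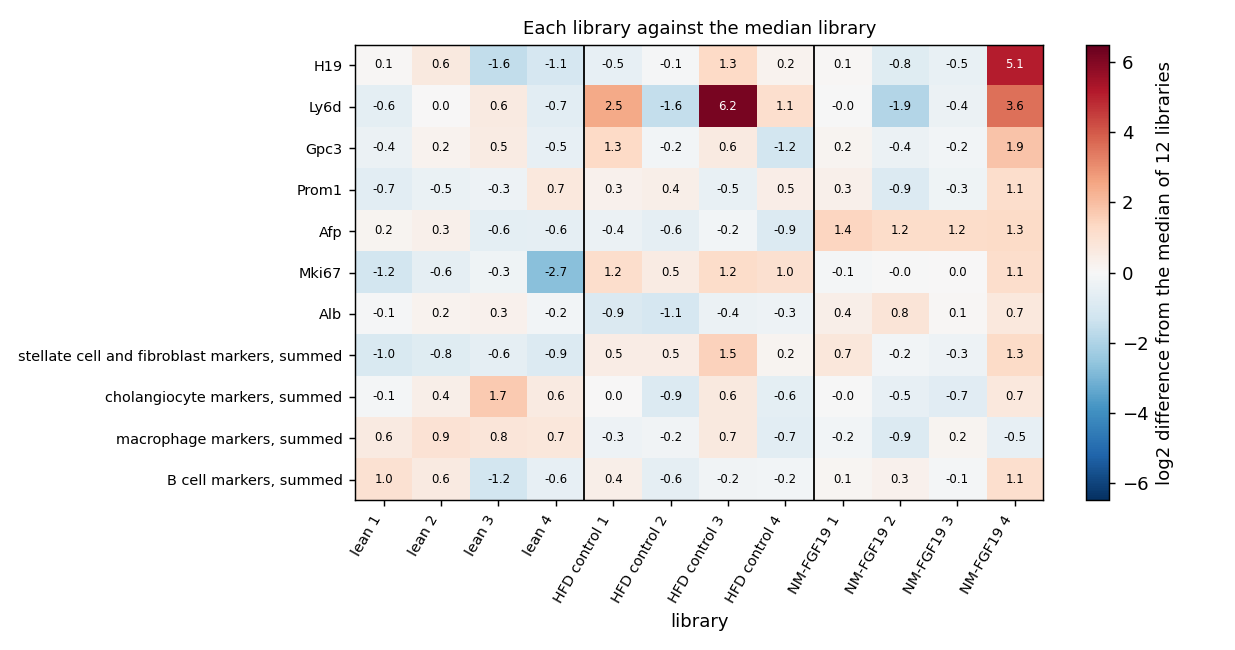
Each cell is the log2 difference of 1 library from the median of the 12, for the 5 tested members, Mki67, Alb and the summed markers of 4 cell types, with lines between the groups. NM-FGF19 4 is 5.1 above the median for H19 and 3.6 for Ly6d, HFD control 3 is 6.2 above it for Ly6d, and Afp is 1.2 to 1.4 above it in all 4 treated libraries.

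For H19, Gpc3 and Prom1 the highest library was NM-FGF19 4. Igf2 had 2 reads there, as in HFD control 1 and HFD control 4. The share of all genes that were highest in NM-FGF19 4 was not worked out. Afp was not highest there: NM-FGF19 4 was at 6.92 CPM, within 6.55 to 7.60 CPM for its group. Without that library Afp remained higher than in HFD control livers. In the 8 fits that each left out 1 library, the Afp change against HFD control was 1.67 to 1.91 (adjusted p 0.00759 to 0.0423), called in all 8.

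Of the wider set of fetal and tumour genes in the liver, 17 of 24 could be tested. With diet 2 rose and 2 fell, in NM-FGF19 against HFD control 1 rose and 0 fell, and against lean livers 1 rose and 0 fell. Of all genes, 5.04% rose and 3.29% fell with diet, and 0.282% and 1.01% rose in the 2 treatment comparisons. The median changes of the 17 were −0.07, 0.25 and 0.22, beside −0.02, 0.00 and −0.01 for all genes. Leaving out 1 library at a time moved each of them across 0, to −0.34 to 0.09, −0.34 to 0.43 and −0.07 to 0.34, and both treatment medians were below 0 in the fit without NM-FGF19 4. The gene that rose under NM-FGF19 was Akr1c18, which encodes an enzyme that inactivates progesterone. It had 1, 2, 2 and 3 reads in lean, 0, 0, 2 and 2 in HFD control and 64, 95, 12 and 102 in NM-FGF19 livers, so every treated library was above every control library. The adjusted p was 0.00745 against HFD control and 0.0142 against lean livers, though limma voom called neither. The Akr1c genes are near-identical copies, and how the counting split shared reads is not known.

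The diet calls of that set were Akr1b8, a reductase gene raised in liver tumours of rodents (1.00 ± 0.21, adjusted p = 0.0143), and Sox4, a transcription factor gene of progenitors and tumours (1.74 ± 0.37, adjusted p = 0.0161), which both rose. Tff3, a mucosal peptide gene, changed by −3.38 ± 0.80 (adjusted p = 0.0280), and Sox9, a bile duct and progenitor gene, by −1.69 ± 0.47 (adjusted p = 0.0477), which both fell. The calls of Tff3 and Sox9 were kept in 2 and 1 of 8 fits that left out 1 library. Without lean 3 and HFD control 3, 0 of the 17 tested genes of that set were called lower with diet. Sox9 is itself among the bile duct markers, whose sum was highest in lean 3, and the part of bile duct cells was not tested. In NM-FGF19 livers Akr1b8 was 6.62 ± 1.84 CPM beside 7.45 ± 1.07 in HFD control and 3.74 ± 0.385 in lean livers, and Sox4 was 5.80 ± 2.45 beside 6.51 ± 2.45 and 1.94 ± 0.786 CPM.

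Native FGF19 drives division of hepatocytes around the central vein and acts in part through STAT3, so 3 lists of that kind were read beside the members. Of 15 beta-catenin targets that mark hepatocytes around the central vein, 0 were called in all 3 comparisons, with 1 at an unadjusted p under 0.05 in each. DESeq2 called 0, 0 and 1 of them, and limma voom 0. The median was −0.10 in NM-FGF19 against HFD control, and −0.24 to −0.018 when 1 library was left out. Of 9 STAT3 targets, 0 were called in NM-FGF19 against HFD control, with 0 at an unadjusted p under 0.05 and 0 by DESeq2 or limma voom. Against lean livers 0 were called as well, with 1 at an unadjusted p under 0.05 and 0 by the other tools. With diet 1 of 9, Stat3 itself, fell (−1.25 ± 0.29, adjusted p = 0.0214, kept in 6 of 8 fits that left out 1 library), and 5 fell in the fit without lean 1. Without lean 3 and HFD control 3, 0 of the 9 were called with diet. DESeq2 called 4 of them lower and 1 higher with diet, and limma voom 1 lower. Of all genes, 3.29% fell with diet.

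Of the cell division genes, 8 of 17 rose with the high-fat diet and 0 fell, where 5.04% of all genes rose and 3.29% fell, with a median change of 1.55, and 5 rose in the fit without HFD control 3. DESeq2 called 11 of them higher with diet, and limma voom 7. Other cell types moved in the same comparison: stellate cell and fibroblast markers, with 4 of 10 called higher and 0 lower, summed to 440 to 1103 CPM in HFD control against 198 to 262 in lean livers, and of 7 macrophage markers 2 rose and 3 fell. Without lean 3 and HFD control 3, 0 of the 10 were called, and of the 7 macrophage markers 1 rose and 2 fell. Which cells the division genes came from was not tested. In NM-FGF19 against HFD control 0 of 17 were called, with 1 at an unadjusted p under 0.05, 0 by DESeq2 or limma voom, and a median change of −0.58. That median was −0.22 without HFD control 3 and −0.90 without NM-FGF19 4. Against lean livers 3 of 17 rose and 0 fell, where 1.01% of all genes rose, and 1 of 17 rose without lean 4 or without NM-FGF19 4. There DESeq2 called 6 of them higher and limma voom 1. Mki67, a marker of dividing cells, stood at 1.99, 3.06, 3.77 and 0.699 CPM in lean, 10.2, 6.57, 10.6 and 9.32 in HFD control and 4.23, 4.46, 4.68 and 10.1 in NM-FGF19 livers. The treated livers lay between the control groups except for NM-FGF19 4, which was at the level of the diet controls. Mki67 changed by −0.64 in NM-FGF19 against HFD control (adjusted p = 0.710) and by 1.31 against lean livers (adjusted p = 0.136). Mcm5, a replication helicase gene, averaged 2.33 ± 0.244, 9.39 ± 2.24 and 7.95 ± 1.79 CPM in the 3 groups and was higher than lean by 1.77 under NM-FGF19 (adjusted p = 0.00324).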

How the data were processed

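Liver mRNA of 12 mice was sequenced as read pairs of 101 nt from libraries of 100 ng total RNA made with a stranded kit, per the labels. The deposited values are raw read counts per gene. The submitters' processing notes name Trimmomatic, STAR and featureCounts for the authors' processing, with build mm39. Not given in the sources used here are versions, annotation, strand mode and how read pairs were counted. Of 76826 values from 1 to 12 counts, 71.0% were even, so 1 count may not be 1 fragment, and limits from counts cover counting error only. All columns were mapped to samples by name, with 0 left over. Symbols matched 52083 IDs.

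Genes were kept with edgeR's filterByExpr (minimum count 10), scaled by TMM and tested with edgeR 4.0.16 in R 4.3.3 (quasi-likelihood F test, robust, 2-sided) in one fit of 12 samples with group as the term, adjusted over 15274 genes. The SE is the one implied by F. CPM uses TMM-scaled totals, and log2 CPM a prior count of 2. Alternatives were DESeq2 1.42.0, limma voom 3.58.1, other scalings and filters, no robust option, only the groups compared, a replicate block and leaving out each library. Leaving out lean 3 with HFD control 3, or NM-FGF19 4 with HFD control 3, was chosen after seeing the data. The scripts were tested on simulated data, with the lowest genes not among those changed. There the NM-FGF19 against HFD control test recovered 2% of 1.5-fold, 62% of 2-fold and 90% of 4-fold changes, for 50 genes each.

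Named genes are the 8 members, per list and comparison the 2 called genes with the smallest adjusted p in each direction, the genes Alb, Mki67, Zhx2, Zbtb20, Igf1, Meg3 and Lpl, and the 3 genes most correlated with each tested member, of which 1 is not reported here. The members and lists were chosen with earlier results of these data known. Baseline mice and the delivered NM-FGF19 transcript were not analysed here. Nothing in the labels says whether mice shared a cage, so p-values measure the spread between these mice.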

Additional observations from a re-analysis of the deposited data

Results flagged for a closer look

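Among 24 groups of 4 libraries (8 genes in 3 groups), 1 library stood apart in 7 groups by Dixon's test on CPM. These were 4 different libraries, and 1 group (Igf2 in lean livers, all at 0) had no range. Chance flags about 1 in 20 groups if values are normally distributed. Skewed CPM from few reads can be flagged more often, so the 7 are no measure of an excess. NM-FGF19 4 was the highest of its group for H19 (18.1 CPM), Gpc3 (1.88 CPM) and Ly6d (16.3 CPM). HFD control 3 was the highest of its group for Ly6d (101 CPM) and the lowest for Dlk1 (0 CPM). NM-FGF19 2 was the highest for Dlk1 (0.462 CPM). Lean 4 was the highest for Prom1 (1.53 CPM). The Dlk1 value of HFD control 3 is 0 reads against 2 in each of its group mates. Since 0 reads there allows up to 0.0800 CPM, above the level of those 3 libraries, it cannot be said to differ from them. Of the other 6, H19 in NM-FGF19 4 also stood apart on the log2 scale.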

How the results depend on the processing

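Afp was called in NM-FGF19 against HFD control under all 19 alternatives, with log2 changes of 1.64 to 1.91 and adjusted p-values of 7.62e-10 to 0.0437. Against lean livers it was called under 15 of 19, and the replicate block, which gave an adjusted p of 0.0597, left 0 members called there. Leaving out 1 library at a time gave 0 to 1. With diet, DESeq2 called 1 member (Ly6d) where edgeR called 0. Same-numbered libraries did not deviate together (0 of 12 pairs correlated over 0.1, r −0.363 to 0.0712), so the replicate numbers do not pair the mice. The block left 593, 18 and 40 of all genes called, against 1272, 66 and 228 without it and 2220, 289 and 969 by DESeq2. Library totals alone moved the median change of all genes to 0.29, −0.13 and 0.17 (diet, NM-FGF19 against HFD control, NM-FGF19 against lean) and called 2609, 56 and 398 genes. The following values of genes that were not called changed sign, and the cause was not tested. Without NM-FGF19 4 and HFD control 3, NM-FGF19 against HFD control gave −0.31 for H19, −0.51 for Gpc3 and −0.62 for Prom1, and against lean livers −0.16, −0.13 and −0.12 in that order and −0.50 for Ly6d. Without lean 3 and HFD control 3, diet gave −0.12 for H19, and NM-FGF19 against HFD control gave −0.12 for Prom1, 0.38 for Ly6d and −0.040 for Zbtb20. Prom1 in NM-FGF19 against HFD control was −0.034 with library totals, −0.065 with limma voom and −0.082 with the replicate block. Leaving out 1 library at a time, Gpc3 with diet ranged from −0.076 to 0.76. In NM-FGF19 against HFD control the ranges were −0.86 to 3.49 for H19, −0.58 to 0.83 for Gpc3, −0.44 to 0.32 for Prom1, −4.99 to 0.38 for Ly6d, −0.16 to 0.38 for Zbtb20 and −0.20 to 0.086 for Igf1. Against lean livers they were −0.16 to 4.15 for H19, −0.13 to 1.00 for Gpc3, −0.12 to 0.82 for Prom1 and −0.48 to 2.34 for Ly6d. The filter at 1 CPM in 4 samples removed H19 and Gpc3. Igf2, Dlk1 and Igf2bp3 were under the depth at which edgeR's filter keeps a gene.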
